A study of Mus musculus with 6 samples.

Results

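The genes of the cytosolic ribosome were followed in bulk RNA sequencing of adult mouse retinal ganglion cells. Members were the gene rows whose symbol is Rpl or Rps with a number and at most a short suffix, Rplp0 to Rplp2, or Rpsa. The rule holds no measured value, but it was chosen with earlier results of these data known. The rule found 83 of 22413 genes, 51 named for the large subunit and 32 for the small subunit. It includes 6 paralogs (Rpl3l, Rpl6l, Rpl7l1, Rpl22l1, Rpl32l and Rps27l), of which Rpl6l and Rpl32l are processed pseudogenes in the GENCODE M21 annotation. Pseudogene symbols with "-ps" and the mitochondrial ribosomal proteins fall outside the rule. All 6 samples were retinal ganglion cells of mice with both alleles of Tgfbr1, the type I receptor for TGF-beta, flanked by loxP sites. The 3 samples called Cre (Tgfbr1flx/flx;Vglut2Cre/+) carried a Cre allele at Vglut2, the gene for vesicular glutamate transporter 2 (Slc17a6), so recombination is expected in any cell that has used that gene. The 3 samples called control (Tgfbr1flx/flx;Vglut2+/+) carried the same floxed alleles and no Cre. The comparison asks which levels differ between ganglion cells of floxed mice with and without Cre. Nothing in the labels tells if a sample is a single animal or several pooled, and the p-values below therefore reflect sample-to-sample spread that could be technical.

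The cytosolic ribosome translates nuclear mRNAs. Its small subunit holds the mRNA and reads codons, and its large subunit joins amino acids, receives the translation factors and lets the new chain out through a tunnel. The proteins are made in near equal molar amounts, and their mRNAs are among the most abundant of most cells. Vertebrate ribosomal protein mRNAs usually begin with a C followed by a run of pyrimidines, the terminal oligopyrimidine (TOP) tract, through which translation of these mRNAs is linked to mTOR signalling. In neurons these mRNAs are also found in axons. Free ribosomal proteins, above all the Rpl5 and Rpl11 pair that carries the 5S rRNA, can bind the p53 regulator Mdm2.

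The letters at the start site are shown for the 8 members with the smallest p-values in the genotype comparison, for 3 of the 5 members with the highest level per length (Rpl35, Rps27 and Rpl41) and for Rpl28, which was nearly absent, so that the start can be seen beside its gene's values. Where a member has several entries the first is printed. RefSeq start entries (GRCm38.p6) were found for 62 of 83 members. Each line gives 15 bases before and 15 bases from the annotated start, 5′ to 3′ on the gene's strand, with 1-based coordinates. Capitals mark a run that begins with C, lies within 5 bases of the start, and goes on with at least 4 further C or T.
Rpl38 (chr11:114668565-114668594, plus strand): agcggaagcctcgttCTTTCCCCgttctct
Rps6 (chr4:86857353-86857382, minus strand): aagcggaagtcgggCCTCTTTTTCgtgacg
Rps23 (chr13:90923107-90923136, plus strand): gccttcggctgggcggggCTTCCCgcaatg
Rps24 (chr14:24490663-24490692, plus strand): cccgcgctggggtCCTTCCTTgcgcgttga
Rpl5 (chr5:107900513-107900542, plus strand): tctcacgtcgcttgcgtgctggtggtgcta
Rpl11 (chr4:136053379-136053408, minus strand): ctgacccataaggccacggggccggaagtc
Rpl23 (chr11:97782425-97782454, minus strand): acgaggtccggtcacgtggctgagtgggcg
Rps19 (chr7:24884577-24884606, plus strand): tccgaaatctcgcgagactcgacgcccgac
Rpl35 (chr2:39005117-39005146, minus strand): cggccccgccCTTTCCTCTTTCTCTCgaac
Rps27 (chr3:90213634-90213663, minus strand): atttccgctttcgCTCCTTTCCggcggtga
Rpl41 (chr10:128549154-128549183, minus strand): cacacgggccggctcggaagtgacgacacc
Rpl28 (chr7:4792950-4792979, plus strand): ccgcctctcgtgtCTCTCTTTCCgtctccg
Such a run, searched on the sense strand only, was in the windows of 30 of 62 members (48.4%), against 5718 of 27025 genes (21.2%) of the same table. All 8 members with the smallest p had a start entry, and 4 of these held a run. Rpl5, Rpl11, Rpl23, Rps19 and Rpl41, printed in lower case throughout, hold no such run in these letters, which says nothing of starts used elsewhere. In the genotype comparison described below, the log2 fold change was positive in 21 of 28 tested members with a run, 28 of 31 with an entry and no run, and 15 of 21 without an entry. Every Cre library exceeded every control in 6, 2 and 1 of these tested members, beside 10.4% of all genes tested. No relation of the run to genotype was tested.

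The libraries held 7486359 to 21126291 gene counts. Genes with at least 10 counts numbered 4258 to 4863 in the controls and 5790 to 7209 in the Cre libraries, so the groups did not overlap in how many genes were seen. Counts of Tgfbr1 were 1, 0 and 1538 in the 3 controls and 46, 0 and 793 in the 3 Cre libraries, whole-gene values that do not separate the floxed part and do not check the labels. Control 3 stood apart in its cell markers. It had 0 counts of Slc17a6, the lowest summed CPM of 17 ganglion cell markers (1168, against 4182 to 7238 elsewhere) and the highest of 12 endothelial markers (6374, against 35.9 to 796). Here CPM is a gene's count divided by its library's total and multiplied by 1000000. A value was called detected at 10 counts, and a count of 0 allows up to 3 counts, or 0.142 to 0.401 CPM depending on the library.

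Together the members took 4.89%, 3.81% and 5.0% of all counts in controls 1, 2 and 3, and 5.59%, 5.11% and 6.01% in Cre 1, 2 and 3. As summed CPM these were 48893, 38083 and 50001 in the controls and 55898, 51052 and 60131 in the Cre libraries. Every Cre library lay above every control, and the lowest Cre value stood just over the highest control value. With TMM effective library sizes in place of totals, the groups overlapped. They also overlapped with the 10 highest genes left out. The means were 55694 ± 4543 CPM in Cre and 45659 ± 6585 CPM in control (SD, n = 3 each), 22.0% higher in Cre. Because members were chosen with results of these data known, this summed level carries no p. In bulk samples a lower summed level may be fewer cells of a type or less of the RNA per cell, and these cannot be told apart. Control 2, the shallowest library, had the lowest sum, and without it the difference was 12.6%. Without control 3, the library rich in endothelial markers, it was 28.1%. Over the 74 members detected in all 6 libraries it was 20.1%.

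**Figure D1:**
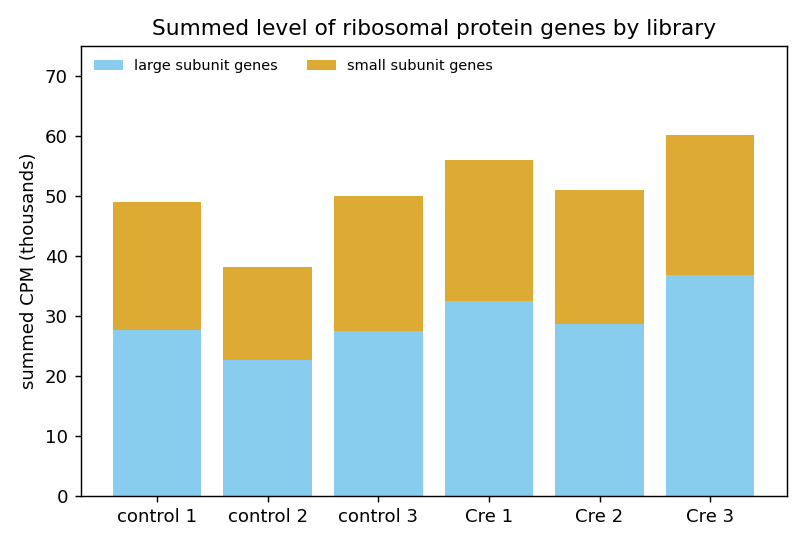
Summed CPM (axis in units of 1000) of the large subunit genes (blue) and small subunit genes (yellow) in each of the 6 libraries, stacked from 0. All 3 Cre bars are taller than the control bars, and control 2 is the lowest at 38083 CPM.

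The large subunit genes made up most of that difference. Their sum was 27574, 22691 and 27380 CPM in controls 1 to 3 and 32398, 28655 and 36822 CPM in Cre 1 to 3, so no control reached the Cre libraries in CPM. When these sums were divided by the TMM factors (0.875 in control 1, 0.992 in Cre 2), control 1 lay above Cre 2. The small subunit genes gave 21319, 15391 and 22621 CPM in the controls and 23501, 22398 and 23309 CPM in Cre, where Cre 2 lay below control 3 and the groups overlapped. The balance between the subunits overlapped too. The small subunit share of member counts was 43.6%, 40.4% and 45.2% in controls 1 to 3 and 42.0%, 43.9% and 38.8% in Cre 1 to 3, with means of 43.1% ± 2.45 and 41.6% ± 2.59 (SD, n = 3 each), a difference within the spread of either group.

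Gene by gene, no member passed the test. Of 83 members, 80 had enough counts to be tested, and edgeR's quasi-likelihood test with Benjamini-Hochberg adjustment over 5727 genes called 0 of 80 at an adjusted p under 0.05, where it called 0 of all genes (0.0%). At an unadjusted p under 0.05 it gave 1 member, Rpl38, or 1.25% of members against 4.91% of all genes tested. DESeq2 called 0 of 79 members with an adjusted p (15.0% of 5900 genes), and limma voom called 1 of 80, Rpl38 again (2.57% of 5727 genes). The counts are noisy: the biological coefficient of variation over all genes was 2.04. With that spread, simulated 4-fold changes were called in 0 of 100 genes and 16-fold changes in 7 of 100. Those shares hold for genes of that spread, and were not computed for members alone.

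The direction of the fold changes leaned to Cre. The log2 fold change, Cre over control, was positive in 64 of 80 members (80.0%), against 54.2% of all genes tested, and its median was 0.37 in members against 0.14 in all genes. By subunit, 38 of 48 large subunit members and 26 of 32 small subunit members were positive, with medians of 0.38 and 0.28. The small subunit median was -0.011 with DESeq2 size factors, -0.029 with DESeq2 and -0.038 without control 2, and positive in every other fit. The large subunit median was 0.13, 0.14 and 0.24 there. The lean of all members depended on the scaling. With DESeq2 size factors 47 of 80 members were positive (46.8% of all genes), with TMMwsp factors 53, and with library totals only 57. The member median under those 3 scalings was 0.12, 0.21 and 0.28, while that of all genes was -0.13, 0.00 and 0.03, so members lay above all genes by 0.21 to 0.25 under each of these and under TMM. Under other fits members lay below all genes. With voom 58 of 80 were positive (70.1% of all genes) and the medians were 0.35 in members and 1.58 in all genes, with DESeq2 0.115 and 0.64, with limma on log2(FPKM + 1) 0.34 and 0.47, on log2(FPKM + 0.1) 0.34 and 0.93, and with no filter on low counts 0.30 and 1.40. A single library moved it as well: without control 2 the median was 0.12 with 48 of 81 positive, and below the median of all genes, 0.45, while without control 1 it was 0.60, beside 0.57 for all genes, and without control 3 it was 0.33, below the 0.56 of all genes.

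**Figure D2:**
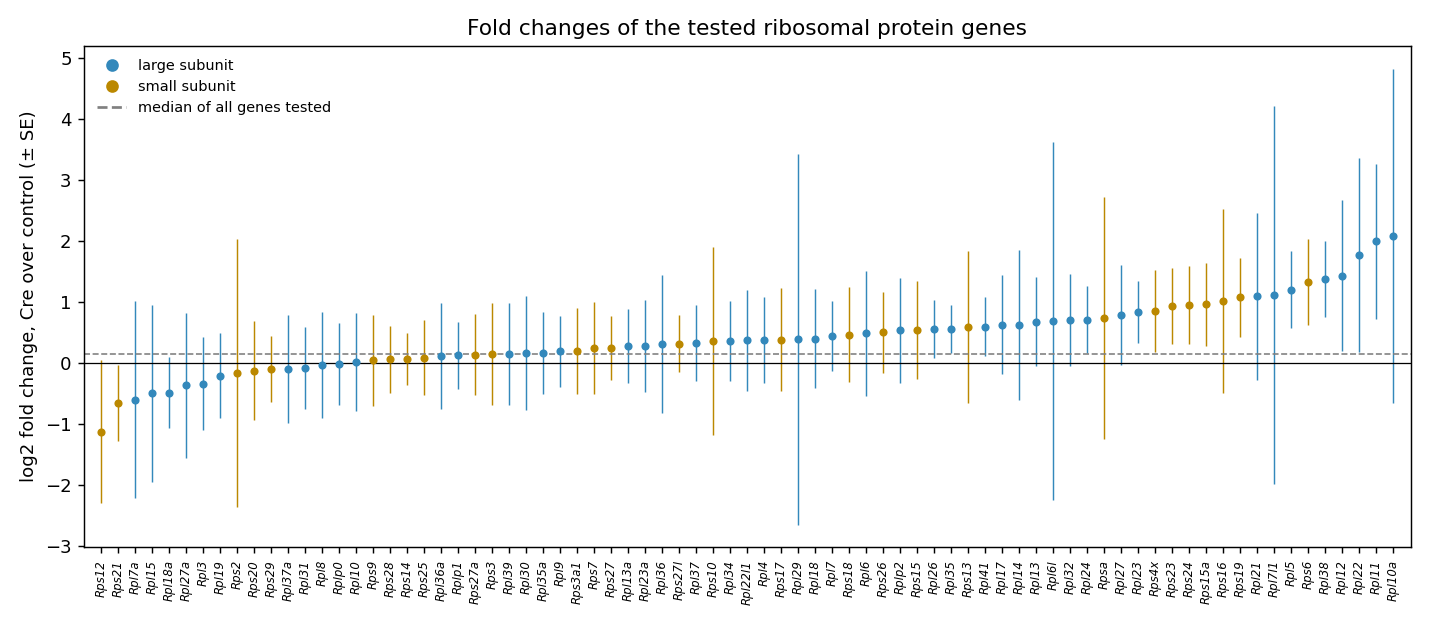
Log2 fold change of Cre over control (± SE) for 77 of the 80 tested members, ordered by value, large subunit in blue and small subunit in yellow. The dashed line is the median of all genes tested (0.14), and the values run from -1.13 for Rps12 to 2.08 for Rpl10a.

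The fold changes were small for this dataset. Members ranged from -1.13 (Rps12) to 2.08 (Rpl10a), with the middle of them between 0.07 and 0.71, and 68 of 80 (85%) lay within 2-fold, against 44.4% of all genes tested. Their median SE was 0.76, against 3.12 for all genes. In 9 of 80 members every Cre library exceeded every control (11.2%, against 10.4% of all genes tested): Rpl11, Rpl21, Rpl23, Rpl35, Rpl38, Rps6, Rps18, Rps23 and Rps24. In 1 member, Rps21, every Cre library lay below every control (1.25%, against 2.3%). Both shares are near those of all genes. The first count was 21 without control 1 or control 3 and 19 without Cre 2, where fewer libraries make separation easier. With TMM-scaled CPM the first count was 8 and the second was 0. The shares over all genes were not computed for these alternatives.

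Among small subunit members with the smallest p-values, Rps6 is the substrate that gives the S6 kinases their name (chromosome 4, 86854099 to 86857367, RefSeq GRCm38.p6, the assembly called mm10). It had 414, 214 and 508 CPM in controls 1 to 3 and 1000, 803 and 906 CPM in Cre 1 to 3. The groups did not overlap, with means of 379 ± 150 and 903 ± 98.7 CPM (SD, n = 3 each). The log2 fold change was 1.33 ± 0.71 (SE; edgeR adjusted p = 1.00). Most of its transcript is not unique, since 84.6% of its 50-base windows also occur in another gene's transcripts, so its counts depend on how such reads were assigned.

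Rps19 and Rps24, both mutated in Diamond-Blackfan anaemia, differed in how they separated the groups. Rps19 had 353, 458 and 725 CPM in controls 1 to 3 and 887, 559 and 1588 CPM in Cre 1 to 3, where Cre 2 lay under control 3. Rps24 had 678, 379 and 489 CPM against 998, 1059 and 787 CPM, without overlap. When CPM were divided by the TMM factors (0.875 in control 1, 1.07 in Cre 3), Rps24 in control 1 lay above Cre 3. Their log2 fold changes were 1.08 ± 0.65 and 0.95 ± 0.64 (SE; edgeR adjusted p = 1.00 for both). Rps23, which lies at the decoding centre, had 184, 917 and 893 CPM in controls 1 to 3 and 1065, 1284 and 965 CPM in Cre 1 to 3. Control 1 was far below the other controls, and the lowest Cre value was only slightly above control 2, and the log2 fold change of 0.93 ± 0.62 (SE; edgeR adjusted p = 1.00) was 0.50 without control 1. Without overlap in the opposite direction, Rps21, a small subunit protein needed for 18S rRNA maturation, had 932, 701 and 1289 CPM in controls 1 to 3 and 617, 464 and 663 CPM in Cre 1 to 3, a log2 fold change of -0.65 ± 0.62 (SE; edgeR adjusted p = 1.00). When CPM were scaled by TMM, Rps21 no longer separated the groups.

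Among large subunit members, Rpl38, a small protein known in mice for its part in translating Hox mRNAs (chromosome 11, 114667818 to 114672333), had the smallest p of all members. It had 1061, 457 and 188 CPM in controls 1 to 3 and 1534, 1586 and 1216 CPM in Cre 1 to 3. The Cre libraries were close together, while the controls spread widely and control 1 came near the lowest Cre value. When CPM were divided by the TMM factors (0.875 in control 1, 1.07 in Cre 3), control 1 lay above Cre 3. The means were 569 ± 447 and 1450 ± 200 CPM (SD, n = 3 each), and the log2 fold change was 1.38 ± 0.63 (SE; edgeR adjusted p = 0.89). With limma voom its log2 fold change was 2.23 and its adjusted p 0.0299, while edgeR's adjusted p over the other scalings, filters and left-out libraries never came under 0.05. Control 3, the library with the least ganglion cell and the most endothelial marker signal, had the lowest Rpl38 level, and the part of those markers in this difference was not tested.

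Rpl5 and Rpl11, the proteins bound to 5S rRNA, were both higher on average in Cre. Rpl5 had 488, 515 and 544 CPM in controls 1 to 3 and 1211, 473 and 1627 CPM in Cre 1 to 3, with Cre 2 under all controls. Rpl11 had 53.9, 197 and 154 CPM in the controls and 345, 349 and 771 CPM in Cre, without overlap. The log2 fold changes were 1.20 ± 0.63 and 2.0 ± 1.27 (SE; edgeR adjusted p = 1.00 for both). Rpl23, another large subunit protein able to bind Mdm2, had 693, 755 and 1026 CPM in controls 1 to 3 and 1522, 1125 and 1395 CPM in Cre 1 to 3. Its groups did not overlap, and its log2 fold change was 0.83 ± 0.51 (SE; edgeR adjusted p = 1.00). Rpl5 shares 85.4% of its 50-base windows with other genes and Rpl11 54.0%, while Rpl23 shares 29.3% and Rpl38 27.4%.

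**Figure D3:**
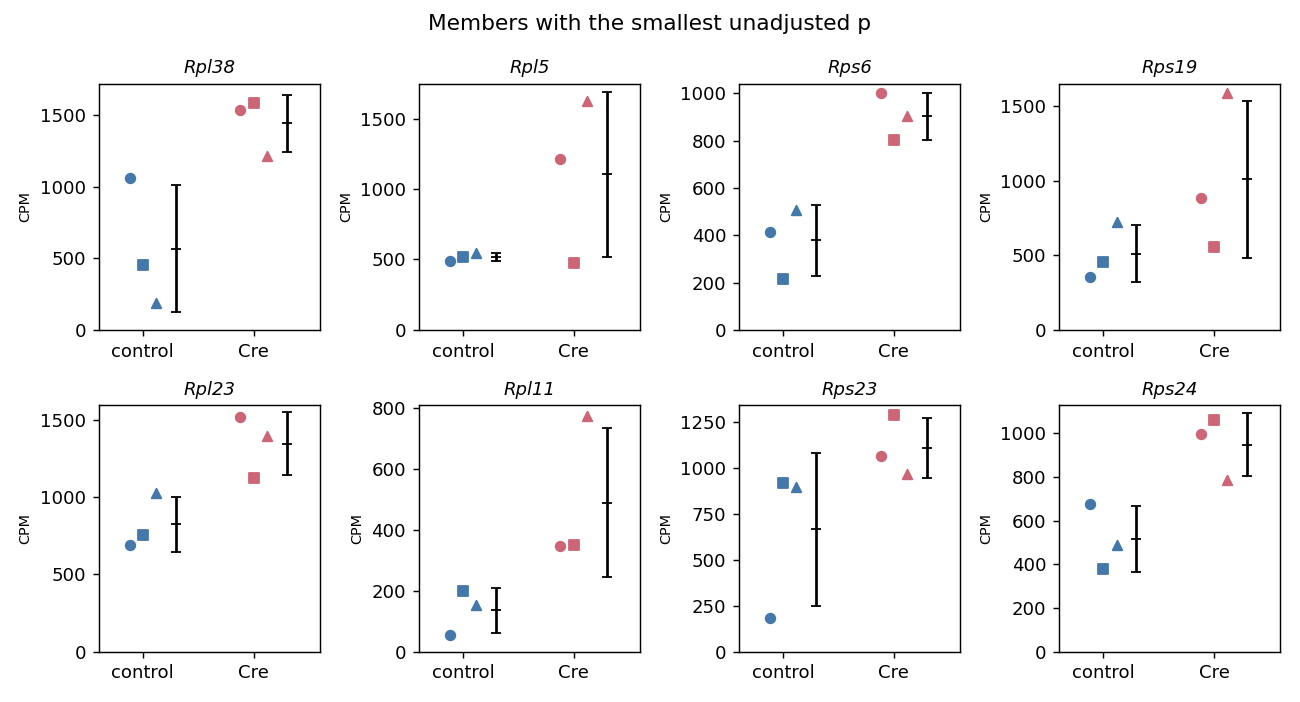
CPM of the 8 members with the smallest unadjusted p, 1 panel each; points are libraries (circle, square and triangle for replicates 1, 2 and 3), and black bars are the mean ± SD of 3 libraries. In CPM, Rpl38, Rps6, Rpl23, Rpl11, Rps23 and Rps24 do not overlap between groups, while Rpl5 and Rps19 do because of Cre 2.

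Members were also grouped by their place in the ribosome, from textbook structures and after their values had been seen, so the sums below carry no test. Rpl5 and Rpl11 together gave 542, 713 and 698 CPM in controls 1 to 3 and 1556, 822 and 2398 CPM in Cre 1 to 3, a ratio of means of 2.45 with no overlap; Cre 2 stood near the controls, and the means differed by 145%, or by 82.6% without Cre 3. The 9 proteins of the exit tunnel and its rim (Rpl4, Rpl17, Rpl19, Rpl22, Rpl23a, Rpl26, Rpl31, Rpl35 and Rpl39) gave 7362, 5719 and 6177 CPM in the controls and 7529, 7793 and 9043 CPM in Cre, again without overlap, though Cre 1 was only just above control 1. When the tunnel sums were divided by the TMM factors (0.875 in control 1, 0.992 in Cre 2), control 1 lay above Cre 2. The other groups overlapped in CPM. The 7 proteins around mRNA entry and decoding gave 2258 to 3927 CPM in the controls and 3597 to 4899 CPM in Cre, and the 6 around mRNA exit 3532 to 5697 CPM against 4490 to 5817 CPM. The stalk that recruits the GTPase factors (Rplp0, Rplp1, Rplp2 and Rpl12) gave 1282 to 3457 CPM in the controls and 1938 to 3465 CPM in Cre. The proteins that reach towards the peptidyl transferase centre (Rpl3, Rpl8 and Rpl10) were the only group of the 7 with a lower mean in Cre, 1431 ± 479 against 1739 ± 345 CPM (SD, n = 3 each), a difference smaller than either SD.

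Levels of different members can be compared only per length, as FPKM, which divide the count by gene length and library total. Over the 80 tested members the mean FPKM of 6 libraries had a median of 671, with the middle of the members between 329 and 1078. The highest was Rpl35, a protein at the rim of the exit tunnel, with a mean of 4541 FPKM, followed by Rps27 (3338), Rps29, Rpl41 and Rps14. Rpl35 had 1934, 1277 and 1915 CPM in controls 1 to 3 and 2227, 2341 and 2621 CPM in Cre 1 to 3, so it did not overlap, with a log2 fold change of 0.56 ± 0.40 (SE). Its level is uncertain, since 95.1% of its 50-base windows occur in another gene and 66.2% of its exonic bases overlap exons on the opposite strand, and whether counting used strand is not given in the sources used here. Rps27, a zinc finger protein of the small subunit, had 1031, 609 and 1644 CPM in the controls and 1376, 1130 and 1139 CPM in Cre, where all Cre values fell inside the control range. Rpl41, the smallest ribosomal protein, had 1320, 817 and 953 CPM against 1270, 1640 and 1593 CPM, and Rps29, another zinc finger protein, 1483, 777 and 870 CPM against 928, 985 and 896 CPM; both overlapped.

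Short genes had the highest FPKM. Spearman's rho between mean FPKM and the length behind it was -0.71 over 83 members, a description only, since length enters FPKM itself. The lengths can depart from current models: for Rps27l the length behind FPKM was 2748 bases and GENCODE M21 has 816 exonic bases, for Rps27 it was 346 bases against 1043, for Rpl35 452 against 1241, and for Rpl22l1 486 against 1989. Ranks of FPKM between members therefore carry that uncertainty as well as the sharing of sequence.

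Some members hardly varied. Among members with a mean of at least 100 CPM, Rps28, Rps18, Rpl36 and Rps14 had the smallest SD of log2(CPM + 1) over the 6 libraries, 0.22 to 0.26. Rps28, a small protein at the mRNA exit, had 906, 749 and 1160 CPM in controls 1 to 3 and 939, 825 and 988 CPM in Cre 1 to 3, with all Cre values inside the control range. Rps14, another protein by the mRNA exit, had 1351, 1450 and 1937 CPM against 1238, 1905 and 1503 CPM, also overlapping. Rps18, a protein of the head of the small subunit, had 430, 447 and 490 CPM in the controls and 570, 508 and 673 CPM in Cre, so a member with one of the smallest spreads still separated the groups, by a log2 fold change of 0.46. Rpl36 had 240, 351 and 341 CPM against 408, 336 and 296 CPM, with Cre 2 and Cre 3 inside the control range.

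Others were lost from 1 or 2 libraries. Rpl10a, a protein of the mobile stalk of the large subunit, had 1, 2 and 2754 counts in controls 1 to 3, against 4274, 4156 and 1021 in Cre 1 to 3. It was near 0 in 2 controls and at 126 to 307 CPM elsewhere, which gave it the largest SD of log2(CPM + 1) of these members (3.81). Rpsa, also known as the laminin receptor precursor, had 8658, 0 and 2336 counts in the controls, against 4511, 8656 and 7221 in Cre, and Rpl22 1751, 0 and 5238 against 7359, 5991 and 6157. Both were at 0 in control 2, where 0 allows up to 0.401 CPM. Rps16, near the decoding centre, was missing from control 1 instead, with 2, 2519 and 6189 counts in the controls, against 2044, 6753 and 6905 in Cre. Rpl29 was likewise at 0 in control 1, beside 1127 and 874 counts in controls 2 and 3 and 546 to 1203 in Cre. The losses of these 5 members lay in controls 1 and 2, and none of the 5 was lost from control 3 or a Cre library. Rpl29 is named outside the rule for named genes, after its values were seen.

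These gaps show in the number of members detected, 77, 76 and 81 in controls 1 to 3 and 81, 81 and 80 in Cre 1 to 3. The means were 78 ± 2.65 and 80.7 ± 0.577 (SD, n = 3 each), and control 3 reached the Cre level. Thinning every library to the smallest total left 77, 76 and 80 in the controls and 80 in each Cre library, so the numbers at equal depth were nearly those at full depth. The spread among members within a library, as the SD of log2(FPKM + 1), was 2.92, 2.89 and 2.28 in controls 1 to 3 and 2.37, 2.24 and 2.31 in Cre 1 to 3. It was highest in the same controls 1 and 2, while control 3 lay among the Cre libraries. In all 6 libraries, 72 of 76 members with a mean of at least 100 CPM were detected (94.7%), against 46.9% of all 2099 genes at that level. Between 300 and 1000 CPM it was 57 of 60 members (95.0%), against 84.0% of all 507 genes in that range, which include the members. The part of level in the difference was not tested.

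**Figure D4:**
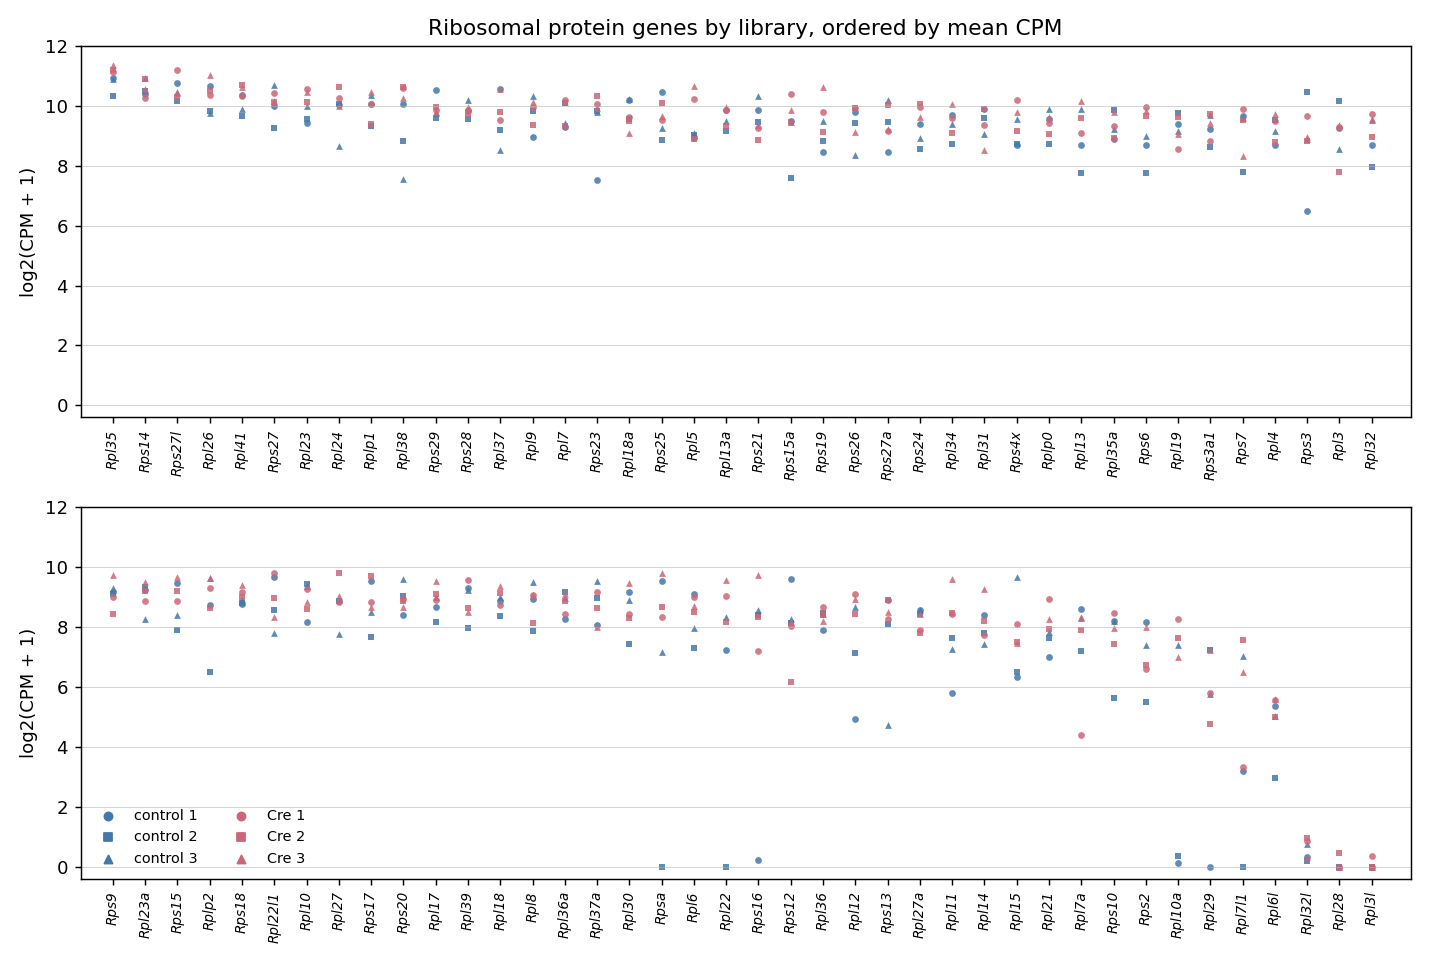
Log2(CPM + 1) of 80 members in each library, ordered by mean CPM; blue is control, red is Cre, and marker shape is the replicate. Most members fall within a narrow band, and the isolated blue points near 0 are Rpl10a, Rps16, Rpsa, Rpl22, Rpl29 and Rpl7l1 in controls 1 and 2.

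At a roughly matched level members varied less than all genes in the range, which include the members. Between 300 and 1000 CPM, the SD of log2(CPM + 1) over the 6 libraries had a median of 0.62 in 60 members (0.44 to 0.81 for the middle of them) and of 1.02 in 507 genes (0.67 to 1.68). The pattern across members was also shared between libraries. Pearson's r of log2(CPM + 1) over 83 members was 0.91 to 0.93 within Cre, 0.69 to 0.73 within control and 0.73 to 0.89 between groups. Over the 74 members detected in all libraries it was 0.79 to 0.81 within Cre, 0.57 to 0.67 within control and 0.63 to 0.77 between groups, and over 2099 genes with a mean of at least 100 CPM it was 0.36 to 0.46, 0.06 to 0.15 and 0.16 to 0.31. These values are descriptions across genes, which are not independent and share library and length. Of the sum of squares of the 74 members, 72.7% went with the member, 3.29% with the library and 24.0% with neither.

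A few members stood out in a single library, and they are named here after their values were seen. Rps3, which lies at the mRNA entry, had 89.0, 1401 and 470 CPM in controls 1 to 3 and 454 to 810 CPM in Cre. Rpl15 reached 819 CPM in control 3, against 79.7 to 275 CPM elsewhere. Rps12, with the lowest fold change of all, was high in 1 library only: 779, 282 and 305 CPM in controls 1 to 3 and 258, 69.9 and 284 CPM in Cre 1 to 3 (log2 fold change -1.13 ± 1.18, SE). Such single-library departures were on both sides of the comparison, as in Rpl7a, at 19.9 CPM in Cre 1 and 145 to 388 CPM in the other 5 libraries.

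Rpl3l, Rpl28, Rpl32l and Rpl7l1 were among the members closest to absent by mean FPKM. Rpl28, a protein of the large subunit, had 0 counts in 5 libraries and 8 in Cre 2, although its start (printed above) carries a pyrimidine run and 35.0% of its 50-base windows are shared. Its share of windows is a measured value, and its part in these low counts was not tested.

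The paralogs differed in whether they matched their parent gene. Rpl3l, the form of striated muscle, had 4 counts in Cre 1 and 0 elsewhere, while Rpl3, beside the peptidyl transferase centre, had 220 to 1142 CPM. Rpl32l, a processed pseudogene in GENCODE M21 but protein-coding in RefSeq, had 1 to 20 counts a library, against 247 to 850.5 CPM of Rpl32. Rpl6l, a pseudogene in RefSeq and GENCODE M21, had 6.81 to 47.8 CPM, against 156 to 542 CPM of Rpl6. Rpl7l1, a factor of large subunit assembly, had 94, 0 and 2100 counts in controls 1 to 3, against 124, 3991 and 718 in Cre 1 to 3, with a mean of 27.0 FPKM against 955 of Rpl7. None of these 4 approached its parent.

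By FPKM, Rpl22l1 did the reverse. Its values were 1669, 774 and 460 in controls 1 to 3 and 1828, 1025 and 657 in Cre 1 to 3, against 68.3, 0 and 145 and then 239, 128 and 344 for Rpl22, so the paralog was higher in 6 of 6 libraries, by 6.93 times on the means. Rpl22 and Rpl22l1 are known for regulating each other. With the GENCODE M21 exonic lengths in place of those behind FPKM, an alternative added after seeing the data, the ratio was 2.23 and Rpl22l1 was higher in 5 of 6 libraries, with Cre 3 the exception (161 against 261 CPM per 1000 bases). Rps27l, a paralog known as a p53 target, was abundant by count, with 1756, 1156 and 1401 CPM in controls 1 to 3 and 2325, 1258 and 1379 CPM in Cre 1 to 3. Per length it averaged 562 ± 157 FPKM (SD over 6 libraries) against 3338 ± 1003 FPKM of Rps27, lower in 6 of 6. With GENCODE M21 lengths the order turned: Rps27l averaged 1894 ± 530 and Rps27 1107 ± 333 CPM per 1000 bases, and Rps27l was higher in 6 of 6, so the order of this pair rests on the lengths used. Neither paralog separated the groups, with log2 fold changes of 0.37 for Rpl22l1 and 0.32 for Rps27l.

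Sequence shared with other genes is common in this family, because many of its genes have processed pseudogenes. Over 83 members a median of 38.3% of 50-base windows occurred in a transcript of another gene (26.0% to 63.8% for the middle of them), 29 members had over 50%, and 2 had none. With 100-base windows the median was 26.0%. Across members this share had little relation to level (Spearman's rho 0.13 with mean FPKM) or to spread (0.06 with the SD of log2(CPM + 1)), both over 83 members that share annotation and libraries. The rows whose symbols carry "-ps", 13 in all, took only 27.8 to 121 CPM together, 0.073% to 0.216% of what the members took. In position, 14 members lie on chromosome 7, 8 on chromosome 17, and 4 on X (Rpl10, Rpl36a, Rpl39 and Rps4x). Small nucleolar RNA genes lie within 30 members, 58 such genes in all.

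**Figure D5:**
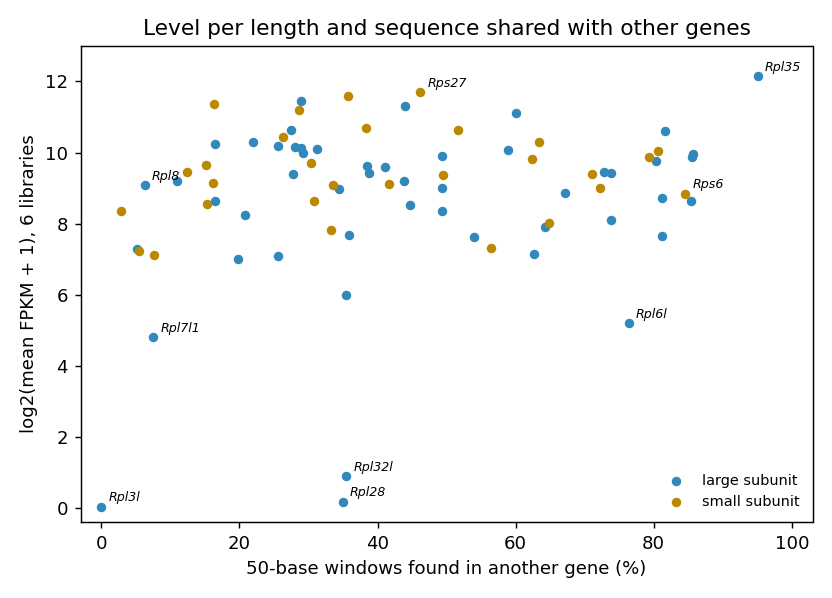
Share of a member's 50-base windows that occur in another gene (percent, horizontal) against log2(mean FPKM + 1) over 6 libraries (vertical), for 80 members. Rpl35, the highest by mean FPKM, was at 95.1%, and Rpl22, at 5.16%, averaged 154 FPKM.

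Of 8 further ribosome subunits and retrogenes that the symbol rule leaves out, 5 were tested. Fau, whose product is cleaved to ubiquitin-like Fubi and Rps30, had 969, 2989 and 5615 counts in controls 1 to 3, against 6170, 11587 and 6066 in Cre 1 to 3; in CPM its groups did not overlap (log2 fold change 1.24 ± 0.96, SE). Rpl36al, a copy of Rpl36a, did not overlap either, with 247, 514 and 146 CPM against 604, 678 and 547 CPM (1.18 ± 0.88), and per length it averaged 882 ± 408 FPKM beside 931 ± 219 FPKM of Rpl36a (SD over 6 libraries). Rack1, the scaffold on the head of the small subunit, had 140, 342 and 944 CPM against 967, 419 and 1663 CPM, where Cre 2 lay under control 3. Rps27rt, a retrogene copy of Rps27, had 13.2 to 39.0 CPM over all libraries and overlapped.

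The rest of the translation machinery was read from lists chosen with results of these data in view, and edgeR called 0 genes of each at an adjusted p under 0.05. Of the initiation, elongation and termination factors, 26 of 45 tested genes were positive and 19 negative, with a median log2 fold change of 0.06, below the 0.14 of all genes. Eef1b2, a nucleotide exchange factor of elongation, had 184, 432 and 38.4 CPM in controls 1 to 3 and 798, 739 and 596 CPM in Cre 1 to 3, without overlap (1.90 ± 0.94, SE; edgeR adjusted p = 1.00). Eif2s2, the beta subunit of eIF2, overlapped, with 1021, 2291 and 897 CPM against 2105, 1839 and 2372 CPM (voom adjusted p = 0.0295). Etf1, the release factor eRF1, had 1, 0 and 9 counts in the controls, against 1423, 7280 and 1297 in Cre (edgeR adjusted p = 0.765), and was called by DESeq2 (adjusted p = 0.0041) and voom (adjusted p = 0.0116). It is the 1 gene of this list at an unadjusted p under 0.05.

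Of the other mRNAs known for a TOP tract, 17 of 23 tested were positive and 6 negative, with a median of 0.44. Their summed CPM were 7289, 7121 and 12693 in controls 1 to 3 and 11470, 10921 and 14517 in Cre 1 to 3, so here control 3 lay above Cre 1 and Cre 2. Tpt1, the translationally controlled tumour protein, did not overlap, with 746, 1046 and 631 CPM against 1454, 1865 and 1606 CPM (1.15 ± 0.48, SE; edgeR adjusted p = 0.815, voom adjusted p = 0.0213). Naca, a subunit of the complex at the tunnel exit, had 68.5, 603 and 600.1 CPM against 804, 793 and 1196 CPM, also without overlap (1.32 ± 0.76, SE). In the start windows, 7 of the 15 listed genes with an entry held a pyrimidine run as defined above.

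For ribosome assembly and mTOR signalling the genes were rarer and the gaps larger. Of 47 ribosome biogenesis genes 26 were tested, 20 positive and 6 negative, with a median of 1.05, and of 41 mTOR pathway genes and regulators of these mRNAs 26 were tested, 17 positive and 9 negative, with a median of 0.71. Only 6 genes of each list were detected in all libraries. Nop58, a core protein of box C/D small nucleolar ribonucleoproteins, had 1, 0 and 0 counts in controls 1 to 3, against 1247, 2557 and 2918 in Cre 1 to 3 (edgeR adjusted p = 0.681), and was called by DESeq2 (adjusted p = 0.00188) and voom (adjusted p = 0.00829). Ubtf, which activates rRNA gene transcription, had 1, 1 and 17 counts against 111, 427 and 154. Wdr12, an assembly factor, had 0, 17 and 2 counts against 2, 1322 and 195, so its Cre 1 value was at control level. Pdpk1, the kinase that activates Akt, had 2, 0 and 1 counts against 507, 722 and 1262 (edgeR adjusted p = 0.849, DESeq2 adjusted p = 0.00439). Akt2 had 5, 0 and 0 counts against 290, 562 and 369 (DESeq2 adjusted p = 0.0361). Apart from Wdr12 in Cre 1, these near-absent values lie in the controls, the libraries in which fewer genes were detected, and the part of that gap in them was not tested.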

How the data were processed

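The build mm10 and the tools HISAT2, HTSeq, fastp, DESeq2 and R 3.2.0 are listed per the submitters' processing notes. Their roles, the strand setting, the annotation and the isolation of the cells are not stated in what was used here. As for the RNA, per the labels' protocols, libraries were made from 1 ng of RNA with the RNeasy Micro and VAHTS Universal V6 kits. The authors deposited raw counts and FPKM for the same 22413 genes; the deposited FPKM equal counts per length and column total, within a relative deviation of 6.4e-07. No column belonged to another series and no row lacked a name.

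Members and gene lists were chosen with earlier results of these data known. Counts of the whole table were compared between Cre and control with edgeR 4.0.16 (filterByExpr, TMM, robust quasi-likelihood F test, Benjamini-Hochberg over 5727 genes, threshold 0.05) in R 4.3.3; adjusted p-values printed as 1.00 are rounded. The SE is the log2 fold change divided by the root of F. The design also planned exact permutation tests of the summed level, subunit balance, spread and number detected; as scores over chosen members their p-values are not printed. Alternatives were DESeq2 1.42.0, limma 3.58.1 (voom; log2(FPKM + 1) and log2(FPKM + 0.1)), other scalings and filters, a replicate block and each library left out. The edgeR script was tested on simulated counts at the observed dispersion and at a dispersion of 0.1, where it called 98 of 100 4-fold changes. The floor of 3 counts covers only counting error, because no molecular identifiers separate molecules from copied reads.

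Named members are the 8 with the smallest p, the 5 highest and 5 lowest by mean FPKM, the 4 most and 4 least variable with a mean of at least 100 CPM, and paralogs with parents; other genes are Tgfbr1, Slc17a6, subunits outside the symbol rule and the 3 genes with the smallest p of each related list. Some genes that the rules name are not reported here or drawn singly, but stay in all counts and sums. Start windows are from RefSeq (GRCm38.p6), with 62 of 83 members matched; shared windows and overlaps are from GENCODE M21, with all 83 matched.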

Additional observations from a re-analysis of the deposited data

How the results depend on the processing

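The direction of the summed level, the subunit balance, the spread among members and the number detected was the same under every alternative run, and the summed level was 11.4% to 29.6% higher in Cre, lowest without both control 1 and control 2 and highest with TMM effective library sizes. With those sizes, and with the 10 highest genes left out, the summed levels of the groups overlapped. Leaving out 1 library at a time gave 12.6% to 28.1% for the summed level, -6.44% to -0.30% for the small subunit share, -20.7% to -10.9% for the spread and 2.11% to 5.45% for the number detected. Members called were 1 with limma voom, which was Rpl38 at a log2 fold change of 2.23, and 0 under the others, also at an adjusted p under 0.1. DESeq2, which called 15.0% of all genes with an adjusted p, called 2 of 41 initiation and elongation factors, 4 of 28 ribosome biogenesis genes, 6 of 27 mTOR pathway genes and 0 of 22 other TOP mRNAs. Limma voom, which called 2.57% of all genes, called 2 of 45, 1 of 26, 1 of 26 and 1 of 23; the cause was not tested. The median member log2 fold change was 0.12 with DESeq2 size factors, 0.115 with DESeq2, and 0.12 to 0.60 with 1 library left out, where 48 to 65 members were positive. Members wholly higher in Cre numbered 9 to 21 with 1 library left out, where fewer samples make separation easier, and members wholly lower 1 to 4. With TMM-scaled CPM the members wholly higher were 8 and the members wholly lower were 0. Shares over all genes were not computed for these alternatives, so the counts are not read as a result about members. The median share of shared windows was 26.0% with 100-base windows.

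Of the 28 named members that were tested and are reported, 20 kept the sign of their log2 fold change under every alternative run. Over the 28, 417 of 448 comparisons with an alternative kept both the sign and the side of the threshold, and 30 turned the sign. Rps27 was at -0.059 with DESeq2 size factors, -0.078 with DESeq2 and -0.0038 with voom. Rps14 was at -0.22, -0.079, -0.037 and -0.24 with DESeq2 size factors, TMMwsp, library totals and DESeq2, and at -0.032 with limma on FPKM for both pseudocounts. Rps28 was at -0.22, -0.078, -0.043, -0.24 and -0.14 with the same scalings, DESeq2 and voom, and at -0.014 on FPKM. Rps29 was at 0.10 with voom, and Rpl36 at -0.007 with DESeq2. Outside the members, Tgfbr1 was at -0.20 with DESeq2 size factors and -0.019 with no filter on low counts; Slc17a6 was at 5.59 with voom and at 1.64 and 2.74 on FPKM. With 1 library left out, the log2 fold change ranged from -0.13 to 0.58 for Rps27, -0.41 to 0.39 for Rps29, -0.11 to 0.20 for Rps14, -0.19 to 0.19 for Rps28, -0.27 to 1.25 for Rpl22l1, -0.17 to 0.62 for Rps27l, -0.66 to 0.059 for Rpl3, -0.45 to 0.28 for Rps27rt, -3.94 to 9.02 for Tgfbr1 and -0.91 to 1.33 for Slc17a6.

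The labels number the samples 1 to 3 in both groups. Deviations of same-numbered samples from their group means had r = -0.03, 0.03 and -0.01 over the genes tested. With 3 libraries a group, these values cannot show whether the numbers pair samples. With a replicate block 0 members were called, the member median was 0.45 and 69 members were positive, beside a median of 1.10 and 67.5% positive over all genes; Rps29 was at 0.013, Rps27rt at 0.029 and Slc17a6 at 1.49. The depth, 7486359 to 21126291 counts, limits members near 0 more than the others, whose differences are limited by the spread between libraries.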

Other observations

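Genes that act on ribosomal proteins were looked at by symbol after the values were seen, and are given as counts in controls 1, 2 and 3 and then Cre 1, 2 and 3. Rps19bp1, which encodes a nucleolar protein that binds Rps19, had 0 in every control and 365, 2041 and 480 in Cre (edgeR adjusted p = 0.681). Rps6kb1, the S6 kinase best known for phosphorylating Rps6, had 0, 50 and 2287 against 759, 1425 and 0, with a library at 0 in each group. Rps6ka3, a kinase of the RSK family, had 0, 16 and 31 against 676, 578 and 893, without overlap. Larp1, which binds TOP mRNAs, had 44, 946 and 1820 against 596, 2030 and 646, overlapping. Gas5, a non-coding TOP transcript that hosts small nucleolar RNAs, was at 293 to 562 CPM in the controls and 456 to 668 CPM in Cre (log2 fold change 0.44 ± 0.80, SE).

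Rpl37rt, a retrogene copy of Rpl37, had 114, 84.6 and 15.0 CPM in controls 1 to 3 and 86.6, 90.1 and 157 CPM in Cre 1 to 3, while Rpl37 itself had 1499, 584 and 371 CPM and 733, 882 and 1496 CPM. Both were lowest in control 3 among the 6 libraries.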
